A study of Mus musculus with 71 samples.

Results

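The Dlx genes encode homeodomain transcription factors, and the 7 members described here are Dlx1, Dlx2, Dlx3, Dlx4, Dlx5, Dlx6 and Dlx6os1, a long noncoding transcript that runs antisense across Dlx6. Their H3K27ac HiChIP loops were taken from a merged list of 24244 loops by asking which had an anchor, the DNA interval at either end of a loop, within 2 kb of a GENCODE transcription start site (TSS) of a member. A total of 34 loops met this rule, and they carried 127 paired-end tags, or 0.306% of the 41574 tags of the list. A tag is a read pair that joins both anchors, and the loop score of a promoter is the sum of tags over its loops. HiChIP enriches ligated, physically close DNA fragments that carry a chosen chromatin mark, here H3K27ac, the acetylated histone found at active promoters and enhancers. The list came from 2 hSS2 tumors, mouse synovial sarcomas (SyS) that express human SS18::SSX2, the fusion oncoprotein of this cancer, in hindlimb tissue after TATCre injection in early postnatal life. Both tumors had the same genotype and treatment, no untreated tissue was part of the list, and the other ChIP-seq samples of the series were not analysed here. Each tumor was dissociated and crosslinked in bulk, so fewer cells with a loop and a weaker loop per cell cannot be told apart.

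The 6 coding genes form 3 pairs, each transcribed toward each other, a layout that vertebrate Dlx genes have kept since ancient duplications. Genes of a pair are known to share enhancers, many of them in the DNA between both genes, and to be expressed in overlapping patterns. Dlx1 and Dlx2 act in forebrain interneurons and in the jaw, Dlx3 and Dlx4 in skin, teeth and placenta, and Dlx5 and Dlx6 in limb, jaw and bone. Dlx6os1, also called Evf2, is known to regulate Dlx5 and Dlx6 in the embryonic forebrain.

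The list consisted of 2 blocks, each sorted by position, called here its first and second part. The first held 13683 loops and 28657 tags, the second 10561 loops and 12917 tags, and neither could be matched to a tumor. The sources do not say whether the parts are the tumors, and if they are, most of the tags below came from a single tumor. There were no replicate values, so no test was made and every interval below covers counting error only. A listed loop also had to pass the authors' FDR, and the fewest tags of any listed loop depended on its span, the distance between anchor middles. Under 20 kb the minimum was 8 tags in the first part and 4 in the second. Between 20 and 100 kb it was 6 and 2. Beyond 100 kb both parts held loops of 1 tag, but not from the same span on. The first listed such loops only at spans of 344.2 kb or more, whereas the second already did so at 108.8 kb. A promoter without a loop is therefore one for which none was listed, not one shown to lack contacts.

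A set of 5 sequences is shown, the available promoters of looped members and the anchor between Dlx6 and Dlx5, because the tags below meet at these genes. RefSeq promoters, windows of 300 bases around a transcript start, were available for 3 members, Dlx1, Dlx2 and Dlx6os1, and those of Dlx3, Dlx4, Dlx5 and Dlx6 are not shown. The Dlx1 promoter (GRCm38.p6 chr2:71529195-71529494, plus strand) and the Dlx2 promoter (chr2:71546705-71547004, minus strand) both lay inside a loop anchor and are written 5′ to 3′ with CG dinucleotides in capitals.
Dlx1 promoter: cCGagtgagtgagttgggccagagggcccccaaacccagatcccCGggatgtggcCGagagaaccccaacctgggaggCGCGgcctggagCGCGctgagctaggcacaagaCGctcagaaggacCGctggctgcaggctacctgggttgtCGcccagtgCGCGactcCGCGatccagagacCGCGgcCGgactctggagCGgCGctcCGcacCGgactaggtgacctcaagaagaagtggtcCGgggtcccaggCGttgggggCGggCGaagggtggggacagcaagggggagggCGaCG
Dlx2 promoter: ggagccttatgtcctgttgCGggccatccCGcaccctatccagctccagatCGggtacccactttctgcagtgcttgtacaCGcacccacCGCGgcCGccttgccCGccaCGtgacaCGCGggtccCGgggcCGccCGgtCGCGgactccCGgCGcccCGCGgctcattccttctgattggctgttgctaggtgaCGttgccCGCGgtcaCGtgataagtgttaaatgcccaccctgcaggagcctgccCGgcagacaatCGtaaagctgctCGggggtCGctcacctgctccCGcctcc
They held 27 and 29 CG dinucleotides. The median was 7 over the 32851 promoters of the table, of which 15.5% held at least 27. Dlx6os1 had 2 RefSeq promoters, both on the minus strand. The downstream one (chr6:6861634-6861933) lay inside the anchor of the Dlx6 promoter and the upstream one (chr6:6869484-6869783) lay between Dlx6 and Dlx5 but in no anchor. They are written with TAATT, the core bound by many homeodomain proteins, in capitals where it occurs on either strand (TAATT or AATTA, overlapping matches counted).
Dlx6os1 downstream promoter: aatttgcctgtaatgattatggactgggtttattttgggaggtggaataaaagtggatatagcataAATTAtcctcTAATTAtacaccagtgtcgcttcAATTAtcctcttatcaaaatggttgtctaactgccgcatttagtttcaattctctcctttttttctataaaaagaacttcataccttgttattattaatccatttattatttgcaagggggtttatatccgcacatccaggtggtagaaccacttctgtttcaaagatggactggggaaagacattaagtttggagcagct
Dlx6os1 upstream promoter: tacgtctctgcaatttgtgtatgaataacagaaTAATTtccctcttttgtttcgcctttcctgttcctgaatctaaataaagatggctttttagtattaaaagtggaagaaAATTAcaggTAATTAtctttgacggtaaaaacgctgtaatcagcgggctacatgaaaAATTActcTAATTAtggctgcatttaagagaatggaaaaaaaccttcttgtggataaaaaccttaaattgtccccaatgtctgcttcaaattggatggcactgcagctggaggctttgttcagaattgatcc
The downstream sequence held 4 matches and 3 CG dinucleotides, the upstream one 7 matches and 5 CG dinucleotides. At least 1 match occurred in 27% of all promoters, at least 4 in 1.65% and at least 7 in 0.14%, while neither the Dlx1 nor the Dlx2 promoter held any. The fifth sequence is the central 300 bases (GRCm38 chr6:6874362-6874661, plus strand) of an anchor that lay between Dlx6 and Dlx5 and outside any annotated gene. GATC, the site of the MboI enzyme used to cut the chromatin, is in capitals.
Anchor between Dlx6 and Dlx5: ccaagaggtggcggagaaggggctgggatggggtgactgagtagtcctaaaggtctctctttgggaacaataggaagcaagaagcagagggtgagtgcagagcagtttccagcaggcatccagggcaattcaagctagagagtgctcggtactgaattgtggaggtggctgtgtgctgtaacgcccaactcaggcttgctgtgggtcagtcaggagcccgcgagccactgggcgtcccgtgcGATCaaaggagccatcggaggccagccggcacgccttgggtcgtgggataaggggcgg
This stretch held 1 GATC and no TAATT, and the whole anchor of 2.01 kb held 9 and 2.

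Of the 7 members, 6 had a loop, where 23.9% of all 55304 gene symbols did and 45.8% of the 21911 protein-coding ones. A loop score of at least 10 was reached by 5 members, against 5.63% of all and 10.9% of coding symbols. The same 5 reached at least 30, against 1.39% and 2.66%. They also each had a loop with an FDR under 0.001, as 5.83% of all and 11.2% of coding symbols did. Members of a pair share loops, so the 5 are not separate cases.

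Dlx6os1 had the highest loop score of the members, 67 tags (Poisson 95% interval 51.9 to 85.1) over 10 loops. Dlx6, whose product acts with that of Dlx5 in limb and jaw outgrowth, had 54 tags (40.6 to 70.5) over 9 loops. The gene of Dlx6os1 starts inside the same anchor as Dlx6 at some of its annotated TSSs, and all 54 tags of Dlx6 were also tags of Dlx6os1. The 13 tags that only Dlx6os1 had came from the anchor between Dlx6 and Dlx5. Dlx5, a regulator of bone and jaw formation, had 40 tags (28.6 to 54.5) over 6 loops, all in the first part. Dlx2, needed for interneuron migration and the upper jaw, also had 40 tags, over 13 loops. Dlx1, its partner in the same tissues, had 32 tags (21.9 to 45.2) over 7 loops. Dlx4, known from placenta and branchial arches, had a single loop of 2 tags (0.242 to 7.23), and Dlx3, a regulator of hair and tooth formation, had none.

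**Figure D1:**
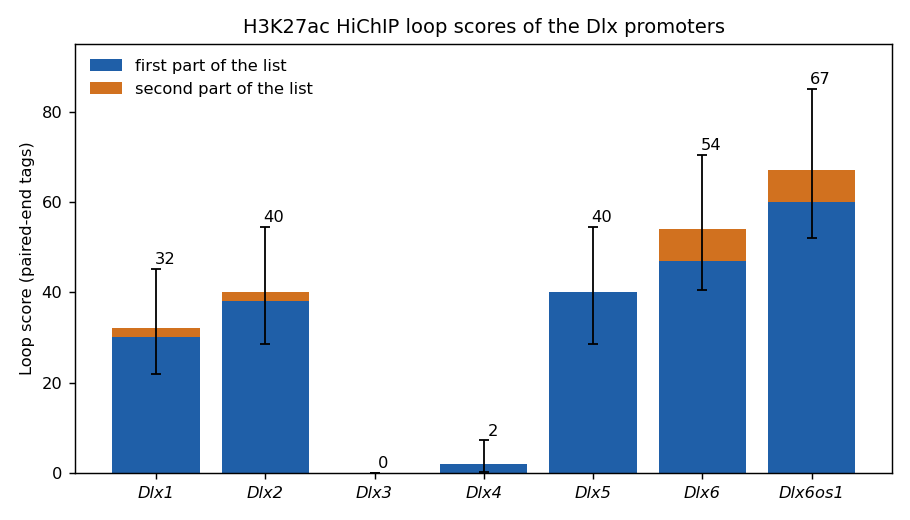
Loop score of each Dlx gene and Dlx6os1, in paired-end tags, split by part of the merged list (stacked colors), with Poisson 95% intervals of the total as bars and none for Dlx3, which has no listed loop. Dlx6os1 (67) and Dlx6 (54) are highest and share 54 tags, and Dlx4 (2) is far below the others.

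In the order of the scores, neighbors mostly did not differ beyond counting error. The ratio of Dlx6 to Dlx2 was 1.35 (exact conditional 95% interval 0.880 to 2.09), that of Dlx2 to Dlx5 was 1.00 (0.629 to 1.59) and that of Dlx5 to Dlx1 was 1.25 (0.766 to 2.06). The score of Dlx1 was 16 times that of Dlx4 (4.08 to 138). Among the 13200 looped symbols, 98.9% scored below Dlx6os1, 98.2% below Dlx6, 96.3% below Dlx2 and Dlx5, 94.7% below Dlx1 and 21.6% below Dlx4. The promoter anchors were of unequal width, and per kb of anchor the order changed. Widths were summed over the anchors of both parts, also where these overlap. Dlx1, Dlx2, Dlx6 and Dlx6os1 had anchors in both parts, which lowers their values, and Dlx5 and Dlx4 in the first alone. The lead of Dlx5 below therefore rests in part on this count. Dlx5 had 23.2 tags per kb on a single anchor of 1.72 kb, Dlx1 6.73, Dlx6 5.32, Dlx2 5.28, Dlx6os1 4.86 and Dlx4 0.718.

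The antisense transcripts could not be told apart from the coding genes whose anchors they start in. Dlx1as had the same 32 tags and 7 loops as Dlx1, Dlx4os the same 2 tags as Dlx4, and Dlx6os2 the same 54 tags and 9 loops as Dlx6. By the overlap of loop sets (Jaccard index, shared loops over all loops of either), these were also the genes most like each pair, at 0.368 for Dlx1as, 1.00 for Dlx4os and 0.643 for Dlx6os2. The next were Erich2 and its antisense transcript Erich2os at 0.105 for Dlx1 and Dlx2, Zfp652 and Zfp652os at 0.111 for Dlx4, and Slc25a13 at 0.125 and Ica1 at 0.0714 for Dlx5 and Dlx6. Each of these indices rested on 1 or 2 shared loops, except those of Dlx1as with 7 and Dlx6os2 with 9.

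The second part of the list contributed little to these genes. It gave 11 of the 127 tags, or 8.66% (Wilson 95% interval 4.91 to 14.9), while it held 31.1% of all tags. That background depends on span. Under 20 kb, where members had 4 of 79 tags in the second part (5.06%, 1.99 to 12.3), it was 17.8%, and over 100 kb, where they had 7 of 42 (16.7%, 8.32 to 30.6), it was 37.3%. By pair, the share was 4 of 52 tags for Dlx1 and Dlx2 (7.69%, 3.03 to 18.2), 7 of 73 for Dlx5 and Dlx6 (9.59%, 4.72 to 18.5) and 0 of 2 for Dlx4. The second part had an anchor at Dlx1, Dlx2 and Dlx6 but none within 2 kb of a Dlx5 TSS. Its nearest, at chr6:6877048-6879881, overlapped the body of Dlx5, lay 2187 bp from a Dlx5 TSS and had 1 loop of 1 tag. The nearest anchor of any kind to Dlx3 lay 13482 bp from its TSS.

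Counting the members as pairs, with each loop once, Dlx5 and Dlx6 with Dlx6os1 had 73 tags (Poisson 95% interval 57.2 to 91.8) in 14 loops. Dlx1 and Dlx2 had 52 tags (38.8 to 68.2) in 19 loops, and Dlx3 and Dlx4 had 2 tags (0.242 to 7.23) in 1 loop. The ratio of the first pair to the second was 1.40 (exact conditional 95% interval 0.970 to 2.04), which includes 1. Both exceeded Dlx3 and Dlx4, by 36.5 times (9.75 to 307) and 26 times (6.85 to 220). By number of loops the order of the first and second pair was the opposite, at a ratio of 0.737 (0.342 to 1.55) that also includes 1.

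How the tags split between loops inside and outside a pair depended on a single anchor, which lies between Dlx6 and Dlx5 and was counted as a member's only because a Dlx6os1 TSS is 1874 bp away. With it, 59 of the 73 tags of Dlx5 and Dlx6 had both ends at members, in 4 loops, or 80.8% (Wilson 95% interval 70.3 to 88.2). Without it, at a 1 kb window or with coding promoters alone, it was 21 tags in 1 loop, or 28.8% (19.7 to 40). Dlx1 and Dlx2 had 20 of 52 tags in 1 loop under either definition, or 38.5% (26.5 to 52.0), so the pairs changed order. The tags in the other loops were 14 for Dlx5 and Dlx6 with the anchor counted as a member's and 52 without, against 32 for Dlx1 and Dlx2. The ratio was 0.438 (0.216 to 0.844) in the first case and 1.63 (1.03 to 2.61) in the second. These shares therefore do not rank the pairs, and the loops are described below by where they end.

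The promoters of a pair were joined directly in both cases. The Dlx1 to Dlx2 loop had 20 tags, a span of 16.4 kb and an FDR of 1.18e-07, and the Dlx6 to Dlx5 loop had 21 tags, a span of 18.8 kb and an FDR of 3.25e-07. Their ratio was 1.05 (0.542 to 2.04), and both were in the first part only. Among the 339 first-part loops under 20 kb, which had a median of 12 tags, 85.0% had fewer tags than the Dlx1 to Dlx2 loop and 87.0% fewer than the Dlx6 to Dlx5 loop. No loop between Dlx3 and Dlx4 was listed, although their 5′ ends are 26.1 kb apart, against 18.6 kb for Dlx1 and Dlx2 and 18.8 kb for Dlx5 and Dlx6.

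Such a loop is uncommon among neighboring genes. Of 5317 adjacent pairs of protein-coding genes with 5′ ends 10 to 30 kb apart, 3.78% were joined by a loop, and of the 1021 convergent ones 6.17% were. At least 20 tags joined 0.451%, which is 24 pairs. Dlx6 with Dlx5 at 21 and Dlx1 with Dlx2 at 20 were at the low end of these. The median over the 201 joined pairs was 11 tags. The highest of the 24 were Hoxc11 with Hoxc10 at 80 tags and Hoxc12 with Hoxc11 at 51, neighboring genes of a homeobox cluster that patterns the body axis. The distance limits and the 20 tags were chosen after the Dlx values were seen, so the comparison is a description.

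**Figure D2:**
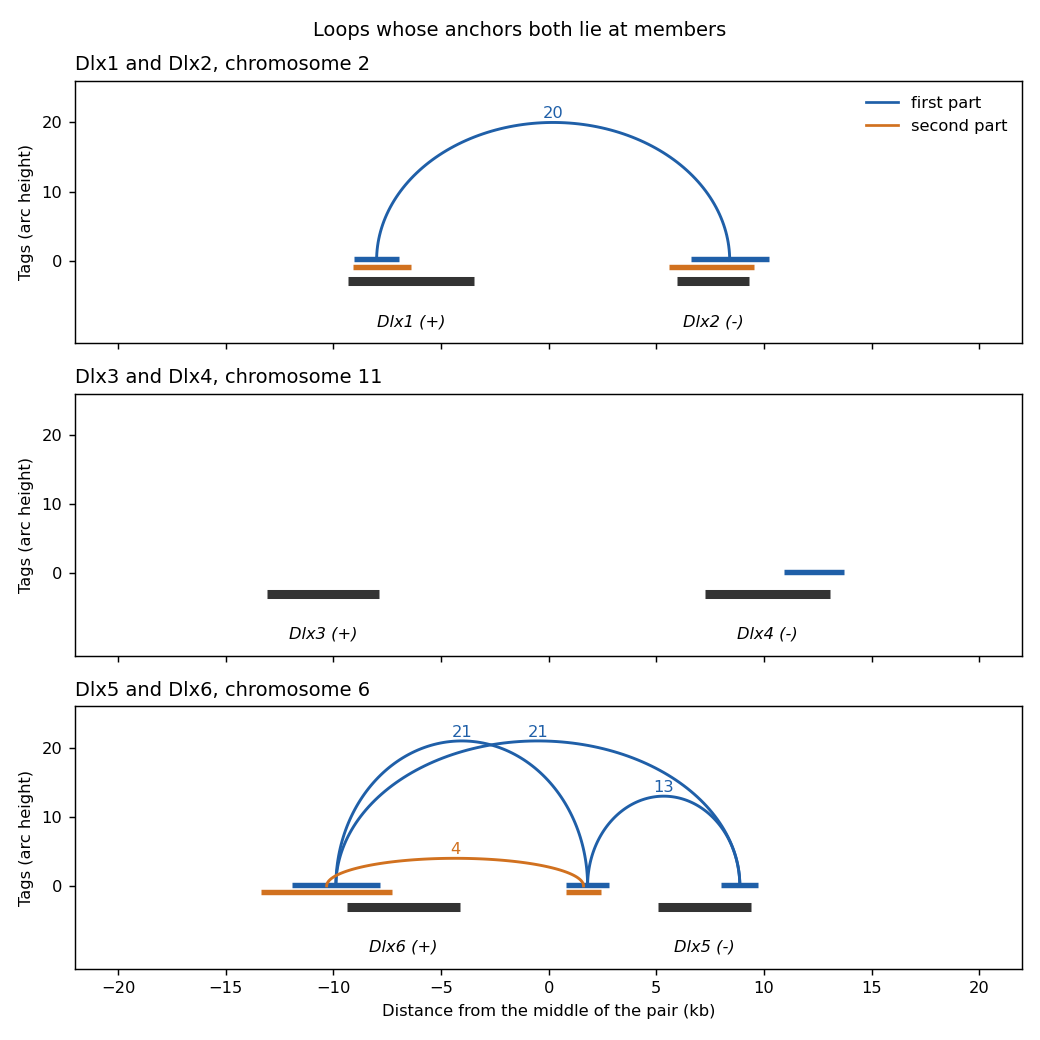
Loops with both anchors at members, drawn by distance in kb from the middle of each pair (x axis), with arc height and label giving the tags. Colored bars are anchors by part of the list and dark bars are the coding genes with their strand. Dlx1 and Dlx2 have 1 arc of 20 tags, Dlx3 and Dlx4 none, and Dlx5 and Dlx6 have 4, of which 3 end at an anchor between the genes that counts as a member's through Dlx6os1 alone.

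Dlx5 and Dlx6 were the only pair with a loop anchor between its genes. This anchor spanned chr6:6873507-6875517 in the first part and chr6:6873507-6875140 in the second, inside the 9.24 kb that separate the 3′ ends of the genes. The Dlx6os1 TSS nearest to it was at position 6871633. It looped to Dlx6 with 21 tags in the first part (span 11.7 kb, FDR 1.67e-06) and 4 in the second (11.9 kb, FDR 0.0189), and to Dlx5 with 13 tags in the first (7.07 kb, FDR 0.0176). In all it had 34 tags in the first part and 4 in the second, against the 21 tags that joined the promoters themselves. The 4 tags are the fewest that any second-part loop under 20 kb had, and the 13 tags exceed 51.0% of first-part loops of that span. No anchor lay wholly in the 9.43 kb between Dlx1 and Dlx2 or in the 15.2 kb between Dlx3 and Dlx4.

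In sequence, the anchor between the genes was dense in MboI sites and otherwise ordinary. It held 4.48 sites per kb, more than 98.5% of the 16864 anchors of the list, whose median was 1.77. Its GC content of 54.2% and its CpG ratio of 0.467 (observed over expected) were close to the medians of 51.3% and 0.502. The GC content of the promoter anchors was 58.2 to 61.5% for Dlx1 and Dlx2, 58.4% for Dlx5, 55.2% for Dlx4 and 52.9 to 53.8% for Dlx6. The CpG ratio was 0.693 to 0.760 at Dlx1 and Dlx2, above that of 83.6 to 91.5% of anchors. Sites per kb at the other promoter anchors ranged from 1.08 at Dlx4 to 2.60 at Dlx1. The part of site density in the tag counts was not tested.

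Outside the pairs, the loops reached 23 distinct anchors, and 17 of them (73.9%, Wilson 95% interval 53.5 to 87.5) lay no more than 2 kb from a TSS that belongs to a different gene. For Dlx1 and Dlx2 these were 12 of 15, for Dlx5 and Dlx6 4 of 7, and for Dlx4 the only one. The same share over the other anchors of the list is not given here. Whether the members differ from it therefore cannot be said. These loops had at most 6 tags. Over all members 19 of 34 loops had a single tag (55.9%), as did 78.0% of the whole list.

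Dlx1 and Dlx2 reached mostly toward lower coordinates, where 24 of their 32 outside tags went (75.0%, 57.9 to 86.8). By loops the split was less uneven, at 11 against 7, and the anchors available on each side were not counted. Metap1d, a mitochondrial methionine aminopeptidase, is the flanking coding gene toward lower coordinates. It was joined to Dlx1 by 6 tags at 75.7 kb, the fewest of any first-part loop between 20 and 100 kb (FDR 0.0470). Slc25a12, a mitochondrial aspartate-glutamate carrier, was joined by 5 tags, 4 to Dlx2 in the first part (178 kb, FDR 0.000907) and 1 to Dlx1 in the second. Dync1i2, an intermediate chain of the dynein motor, was joined to Dlx2 by 4 tags at 334 kb with an FDR of 2.34e-06. The 4-tag loops exceeded 90.7% of first-part loops of 100 to 500 kb. Dcaf17 and Erich2 were each joined to both genes, with 3 tags in all. On the other side, an anchor in an intron of Itga6, the integrin subunit gene that flanks the pair there, had 2 tags to Dlx2 at 268 kb. It lay 11707 bp from the nearest TSS. The remaining partners on that side, Rapgef4, Cdca7, Sp3 and Cir1 with Scrn3 among them, had 1 tag each.

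Dlx5 and Dlx6 sent 11 of 14 outside tags toward lower coordinates as well (78.6%, 52.4 to 92.4), in 7 loops against 3. Slc25a13, the paralog of Slc25a12, was joined by 4 tags, 3 to Dlx5 in the first part (664 kb, FDR 1.11e-05) and 1 to Dlx6 in the second. The 3-tag loop exceeded 97.2% of first-part loops of 500 to 1000 kb. Sem1, a proteasome subunit gene in the region altered in split hand and foot malformation and the flanking coding gene there, had 2 tags to Dlx6 at 284 kb. An anchor in an intron of Dync1i1, the paralog of Dync1i2, at chr6:5858056-5861052, was reached by Dlx6 with 2 tags (1003 kb, FDR 0.000608) and by Dlx5 with 1. It lay 100637 bp from the nearest TSS. Dync1i1 is known to hold limb enhancers of Dlx5 and Dlx6, and whether this anchor is one of them was not examined. It had 1 MboI site in 3.0 kb, a density that 0.67% of anchors were below, and 11 TAATT matches, or 3.67 per kb, above 91.8% of anchors. An intergenic anchor at chr6:6232478-6236862, 11797 bp from the nearest TSS, had 1 tag each to Dlx6 and Dlx5.

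Both pairs thus had anchors that both of their genes reached, 3 each. They were those at Erich2, Dcaf17 and Slc25a12 for Dlx1 and Dlx2, and those in Dync1i1, at Slc25a13 and in the intergenic interval for Dlx5 and Dlx6. Each of the 6 was reached by at least 1 of the genes with a single tag. The Slc25a12 and Slc25a13 anchors were the only 2 of the 6 reached in both parts of the list, but by a different gene in each. Slc25a12 was joined to Dlx2 in the first part and Dlx1 in the second, and Slc25a13 to Dlx5 in the first and Dlx6 in the second. The second part had no anchor within 2 kb of a Dlx5 TSS, so no Dlx5 loop could be listed there. No single-tag loop as short as the 162 kb from Dlx1 to Slc25a12 was listed in the first part. The genes Slc25a12 with Dync1i2 and Slc25a13 with Dync1i1 lie as duplicates on the lower-coordinate side of the 2 Dlx pairs. Dlx promoters were joined to anchors at the promoters of Slc25a12, Dync1i2 and Slc25a13, and to an anchor in an intron of Dync1i1. Dlx4 had 1 outside loop, of 2 tags and 568 kb (FDR 0.00120), to Zfp652, a zinc finger repressor gene.

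**Figure D3:**
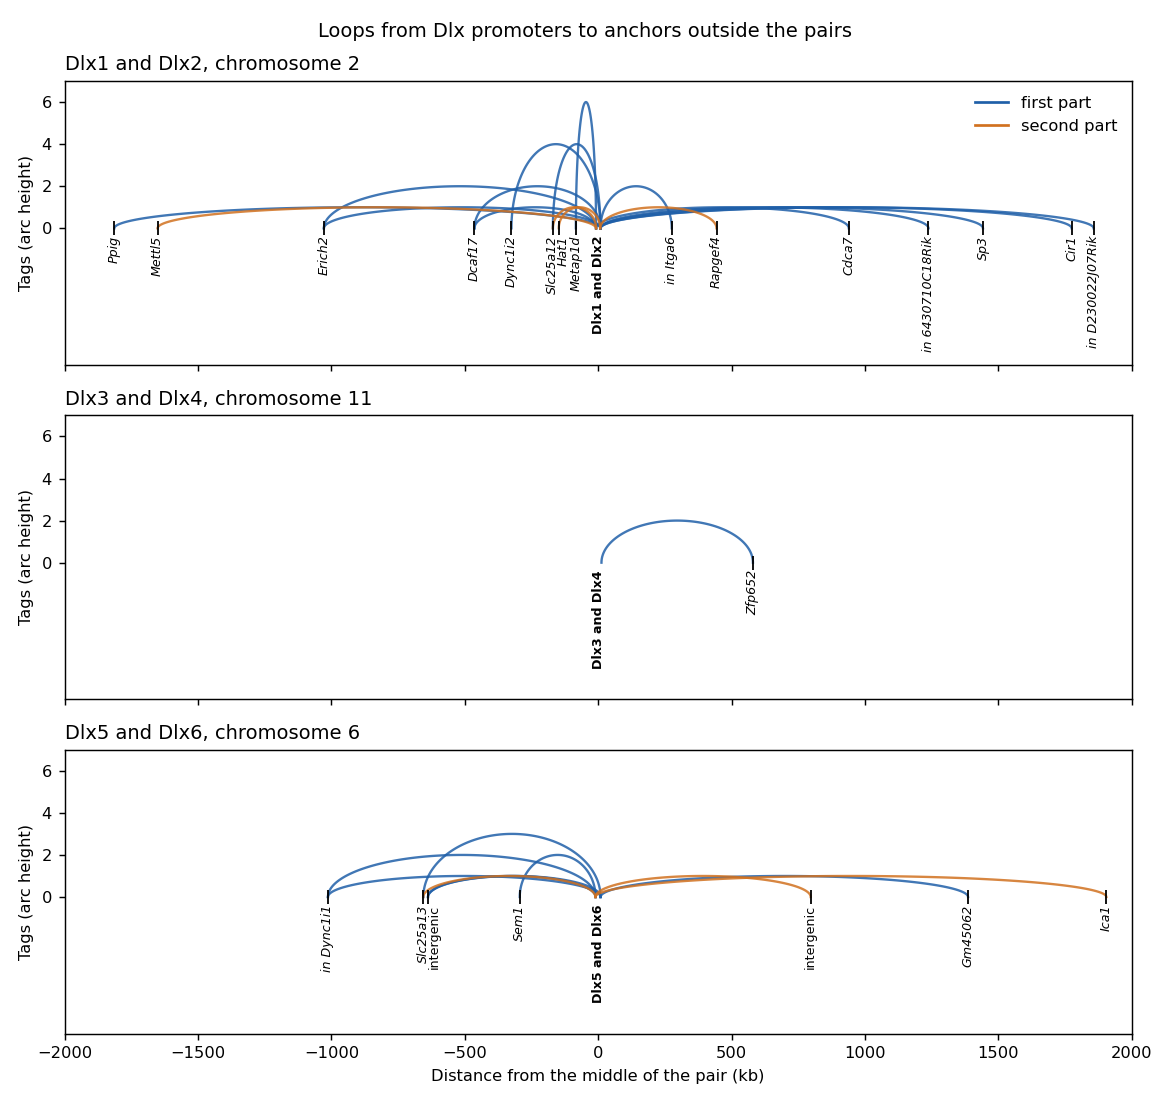
Loops from the Dlx promoters to anchors outside the pairs, by distance in kb from the middle of each pair (x axis), with arc height giving the tags and color the part of the list. Labels name the first gene whose TSS lies within 2 kb of the anchor, or the gene the anchor lies in. The highest outside loop, Dlx1 to Metap1d, has 6 tags, and the Dlx3 and Dlx4 panel holds 1 loop.

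The surroundings of the 3 pairs differed in how much they looped. The list had, with an anchor within 1 Mb of Dlx1 and Dlx2, 61 loops and 100 tags, and the pair took part in 52.0% of those tags. Around Dlx5 and Dlx6 it had 22 loops and 81 tags, of which the pair had 90.1%. Around Dlx3 and Dlx4 it had 102 loops and 123 tags, and the pair had 1.63%. Of the other protein-coding genes with their annotated 5′ end there, 14 of 16 had a loop around Dlx1 and Dlx2 (median score 5). Around Dlx5 and Dlx6 it was 4 of 6 (median 2) and around Dlx3 and Dlx4 28 of 47 (median 1). No neighbor scored above the pair at the first and second locus, where the highest were Cdca7 at 14 and Slc25a13 at 6. At the Dlx3 and Dlx4 locus 19 neighbors did, led by Kat7, a histone acetyltransferase gene, at 22. The flanking coding genes had scores of 11 for Metap1d and 5 for Itga6, 2 for Itga3 and 1 for Tac4, and 4 for Sem1 and 2 for Sdhaf3, where the median over all looped symbols was 4. Gad1, a GABA-synthesizing enzyme gene known as a Dlx target, lies within 1 Mb of Dlx1. It had 4 tags in 4 loops, and none of them went to a Dlx promoter.

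**Figure D4:**
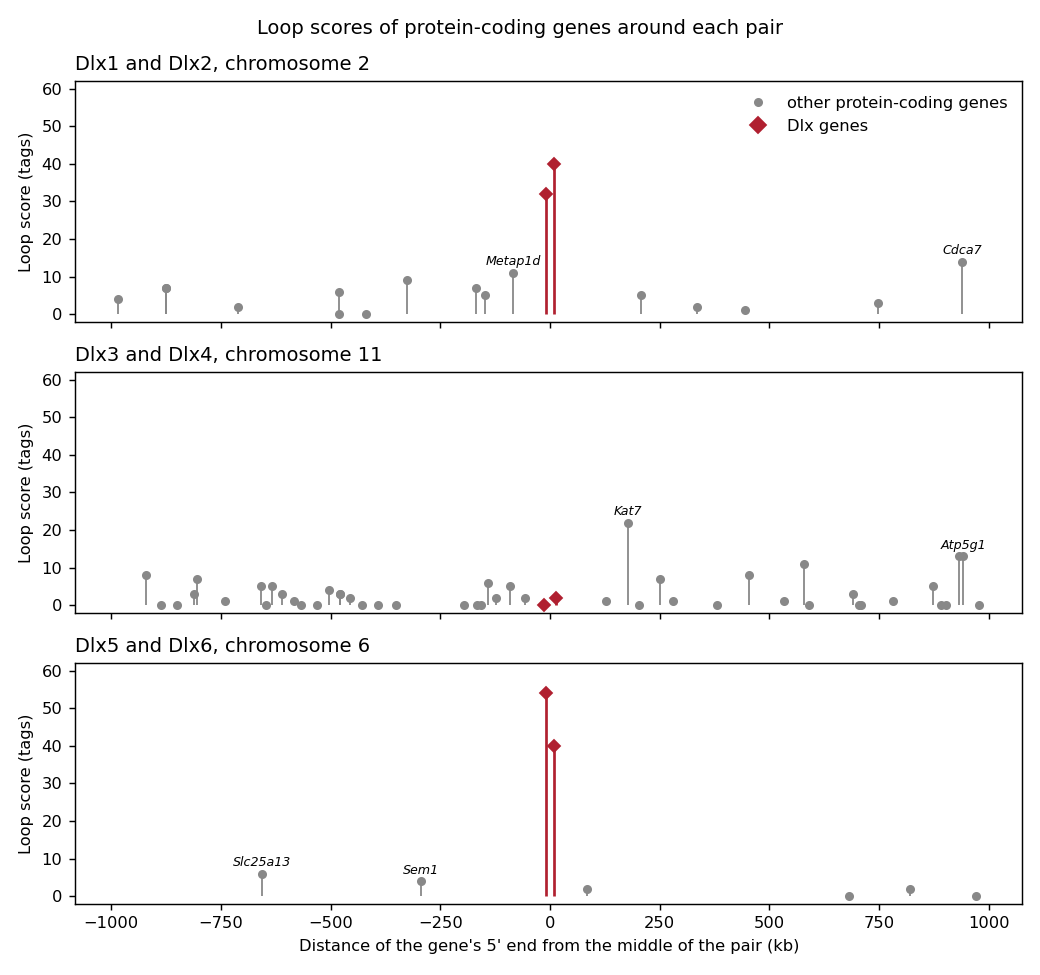
Loop score in tags of every protein-coding gene with its 5′ end within 1 Mb of the middle of a pair (x axis, kb), with Dlx genes as red diamonds and the others as gray points, the 2 highest of which are labeled. Dlx1, Dlx2, Dlx5 and Dlx6 stand at 32 to 54, above every neighbor, and Dlx3 and Dlx4 at 0 and 2 lie below Kat7 at 22.

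Other genes of the same homeobox class and pathway are given as counts, beside the 45.8% of coding symbols that were looped. Of 42 other NKL homeobox genes, the class to which Dlx belongs, 15 had a loop (35.7%), 5 scored at least 10 and none reached 30. The highest were Lbx1, a regulator of migrating muscle precursors, at 29, Nkx2-2 at 27, Msx2 at 20, Msx1 at 18 and Hlx at 15. Msx1 and Msx2 encode repressors that oppose Dlx proteins in jaw and limb. Among 18 genes known upstream of or beside Dlx genes, 11 had a loop, with a median score of 1. Besides Msx1 and Msx2, only Bmp4, a signal that induces Dlx genes, reached 10. Among 19 known Dlx targets with a TSS, 13 had a loop, with a median score of 2. Sp9, a zinc finger gene of interneurons and limb ridge, was at 30 and no other reached 10.

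Markers of the tumor and of other cells were read from the same list. Of 6 genes listed as SyS markers, Cd99 had no TSS under that symbol. Of the other 5, 4 had a loop, with Pdgfra at 41, Sox2 at 39, Tle1 at 4, Nr4a3 at 1 and Bcl2 at 0. Whether these genes are specific to the tumor cells was not tested, and no fibroblast markers were listed. Immune markers (Ptprc, Cd68, Adgre1 and Cd3e) were all at 0. Of 6 muscle markers only Ckm had tags, 2, and Myod1, Myf5, Myog, Pax7 and Acta1 were at 0. Of 3 endothelial markers only Cdh5 had tags, 3, and of 4 epithelial markers Krt18 and Epcam had 1 each. The paper describes epithelial cells among the tumor cells of SyS, so the epithelial markers are not markers of other cells alone. Since the list holds 1 merged score per gene, whether other cells took part in the Dlx loops was not tested.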

How the data were processed

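H3K27ac HiChIP was performed on 2 hSS2 tumors. The authors cut chromatin with MboI, aligned reads to mm10 using HiC-Pro, found loops by hichipper and Mango, and combined the calls of the tumors. The submitters' processing notes name MACS2. The deposited list gives a raw count of paired-end tags per loop, not normalized, and the FDR that the authors' caller assigned, which is an adjusted p-value. The study's methods state a threshold of 0.05 for it and a supplementary legend 0.01. The list reaches 0.0500, and 84.8% of all its loops were at 0.01 or more. Of the members' 34 loops, 12 were under 0.01. How counts were merged is not given in the sources used here.

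Positions were converted to start at 1. All anchor ends lay within the GRCm38 chromosomes. Loops were assigned to genes within 2 kb of any GENCODE vM21 TSS with Python 3.11.15, pandas 2.3.3, numpy 2.4.6 and scipy 1.17.1, and the assignment was tested on simulated data. Depth was 41574 tags over 24244 loops, 78.0% of which had a single tag, which limits precision. Poisson, Wilson and exact conditional 95% intervals cover counting error only, since there were no replicate values. Read pairs also carry no molecular identifiers. No limit was set on genes at 0, because the list holds only loops past a threshold. Named genes were all members, their antisense transcripts, the 3 partners with most tags and the 3 genes most like each pair, and the flanking coding genes. Other genes were named after their values were seen. Members and lists were chosen with earlier results of these data known. A planned comparison of Dlx protein sequences was not run. Alternatives were other windows, TSS sets, FDR and tag minimums, spans and parts of the list.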

Additional observations from a re-analysis of the deposited data

How the results depend on the processing

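The 12 planned settings that changed which loops or TSSs were counted, and the added one, kept the order of the pairs, with 1 exception. Dlx5 and Dlx6 remained above Dlx1 and Dlx2, and both above Dlx3 and Dlx4, except for spans of at least 20 kb, which leave out every loop within a pair. Loop scores of Dlx1 and Dlx2, Dlx3 and Dlx4, and Dlx5 and Dlx6 were then 32, 2 and 14, and no tags (0) joined either pair. They were 34, 2 and 49 at an FDR under 0.01, 30, 0 and 47 under 0.001, 34, 0 and 59 at 4 or more tags, and 4, 0 and 7 in the second part, where 0 tags joined the promoters. A planned count of loops in place of tags gave 19, 1 and 14, which turns the order of the first and last. Tags per kb of promoter anchor, also planned, gave 4.21, 0.718 and 4.71, with overlapping anchors of both parts each counted in full. The share of tags between members, tried under the same settings after seeing the data, moved for Dlx5 and Dlx6 from 80.8% to 28.8% at 1 kb or with protein-coding transcripts, which puts it below the 38.5% of Dlx1 and Dlx2. It was 89.4% at an FDR under 0.001 or 2 or more tags, 100% at 4 or more tags and 0% for spans of at least 20 kb. In the second part it was 57.1% of only 7 tags. For Dlx1 and Dlx2 it was 58.8% at an FDR under 0.01 or 4 or more tags and 66.7% under 0.001. For this pair it was 0% for spans of at least 20 kb and 0% of only 4 tags in the second part. The share of distal anchors near another TSS was 100% at 4 or more tags. Few loops remained there, 4 of Dlx1 and Dlx2, with 1 of them within the pair, and none that left Dlx5 and Dlx6. The second part held 0% of the members' tags at an FDR under 0.01 or 0.001, 3.70% at 2 or more tags and 4.30% at 4 or more. The second part's share of the whole list under these filters is not given here. Its loops had fewer tags in general, with a median of 4 under 20 kb against 12 in the first part. Whether the members differ from the list under these filters therefore cannot be said. With the window at 1 kb Dlx6os1 lost the anchor between Dlx6 and Dlx5 and had 54 tags, while leaving out its short annotated entry, an alternative chosen after seeing the data, left it at 67. The share of all symbols looped was 22.8% at 1 kb and 26.6% at 5 kb. With RefSeq or protein-coding transcripts, which also change the set of symbols, it was 31.8% and 45.0% of those symbols. Over all symbols it was 9.06% and 5.83% at the FDR limits, 11% and 4.51% at 2 and 4 tags, 22.1% for spans up to 1 Mb, and 17.8% and 18.2% in the first and second part. No paired analysis was possible because the list merges both tumors and carries no column per tumor.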
